A study of Mus musculus with 2 samples.

Results

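The 9 genes described here, *Rara*, *Rarb*, *Rarg*, *Cyp26a1*, *Crabp1*, *Crabp2*, *Aldh1a2*, *Stra6* and *Dhrs3*, act in the uptake, synthesis, binding, sensing and breakdown of retinoic acid. They were chosen by their symbols and roles, and all 9 were found among the 21935 gene symbols of the expression tables, where 17 of the 27405 RefSeq transcript entries belong to them. Messenger RNA was sequenced after 72 h of differentiation of R1, an established line of mouse ES (embryonic stem) cells, with 1 library from shKdm5b cells and 1 from shLuc cells. The shKdm5b cells carried a short hairpin RNA against *Kdm5b*, which encodes an H3K4 demethylase, and the shLuc cells carried a control hairpin against luciferase. In both, the hairpin was delivered by a lentivirus from the pGreenPuro vector and the transduced cells were kept under puromycin selection, with no clone named. Both were maintained with LIF on irradiated mouse embryonic fibroblast feeder cells and then differentiated without LIF, for which the labels name dishes of low attachment and the methods of the study also gelatin, and no added retinoic acid is named for either. The comparison asks how the expression of these genes during differentiation differed when KDM5B was depleted. With 1 library for each condition there is no replicate check and no test, and what is due to the library cannot be told apart from what is due to the condition.

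Retinoic acid is made inside the cell from vitamin A. STRA6 takes up retinol from the blood carrier RBP4, retinol dehydrogenases oxidise retinol to retinal, DHRS3 reduces retinal back to retinol, and ALDH1A2 oxidises retinal to retinoic acid. CRABP1 and CRABP2 bind retinoic acid in the cytoplasm, CYP26A1 degrades it, and the receptors RARα, RARβ and RARγ, paired with an RXR, bind response elements in DNA and switch target genes on when the ligand is present. In ES cells and early embryos, retinoic acid is known for driving differentiation and for patterning the hindbrain and trunk.

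*Cyp26a1* and *Rarb* are textbook targets of the receptors, and the elements in their promoters are shown because, of the 8 genes with a promoter window in the RefSeq table (GRCm38.p6), they are the ones that hold a receptor element in the arrangement called DR5. The search took any pair of hexamers in the same orientation, each of them AGGTCA or its variant AGTTCA or else the variant GGGTCA or the variant GGTTCA, on either strand, spaced by 5 bases (DR5), 1 base (DR1) or 2 bases (DR2), in windows from 250 bases before a start site to 50 after it. DR5 was present in 32 of 32851 windows of all genes (0.0974%) and in 2 of the 17 windows of the 8 genes. Since both genes were known targets, this count is a description and not a test. DR1 (0.222% of all windows) and DR2 (0.268%) were in none of the 17, which at such low shares shows little. The *Cyp26a1* element reads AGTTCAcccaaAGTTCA on the strand opposite to the gene, at chr19:37697776-37697792, from 32 to 16 bases before the start site. The *Rarb* element reads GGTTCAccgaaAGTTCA on the strand of the gene, at chr14:16575513-16575529, from 53 to 37 bases before the start site of the window. Both elements lie inside the annotated gene, since the RefSeq range of *Cyp26a1* begins upstream of its element and the GENCODE transcript matched to the *Rarb* entry begins 67 bases before the start site of the window. Each is therefore shown with 6 bases on either side, at chr19:37697770-37697798 (plus strand) and chr14:16575507-16575535 (minus strand). Both are written 5′ to 3′ on the strand of the gene with the hexamers in capitals, and a match of letters does not show that a receptor was bound.
Cyp26a1: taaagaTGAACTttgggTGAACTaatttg
Rarb: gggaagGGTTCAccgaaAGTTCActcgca

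The shLuc library held 78172698 aligned reads and the shKdm5b library 72702698. Levels are in RPKM, the reads of a transcript per kilobase of its length and per 1000000 aligned reads, and a transcript of 1 kb with 3 reads would have 0.0384 RPKM in shLuc and 0.0413 RPKM in shKdm5b. The target of the hairpin, *Kdm5b*, had 104 RPKM in shLuc and 3.01 RPKM in shKdm5b, or 2.88% of the control level. All 8 markers of pluripotent ES cells were above 1 RPKM, and their summed level was 2562 RPKM in shLuc and 2741 RPKM in shKdm5b. Without *Dppa5a*, named after its values were seen, the sum of the other 7 was 1466 RPKM in shLuc and 1090.0 RPKM in shKdm5b, and *Pou5f1* fell from 619 to 182 RPKM. The others had no common direction. *Sox2* (237 and 272 RPKM), *Tdgf1* (323 and 406) and *Klf4* (8.87 and 10.2) moved up. *Nanog* (90.2 and 85.0), *Zfp42* (108 and 92.5) and *Esrrb* (80.5 and 41.2) moved down. Of the 8 markers, 5 stayed within 1.5-fold. Intervals given with the values are at 95% and cover counting error only.

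Of the 9 genes, 6 had more than 1 RPKM in at least 1 library, and all 6 differed by more than 1.5-fold, the threshold of the study. *Rara*, *Rarg*, *Crabp1* and *Cyp26a1* fell in the shKdm5b library, to between 38.7% and 46.6% of the shLuc level, while *Crabp2* rose 2.18-fold and *Dhrs3* rose 1.57-fold. A correction for the GC content of the transcripts took *Rara* and *Rarg* within the threshold. Among all 11804 genes above 1 RPKM, 48.3% passed the same threshold, 16.3% higher and 32.0% lower, so that the threshold was passed by many genes in this pair of libraries. The median log2 ratio of shKdm5b to shLuc, taken on RPKM + 0.1, was -1.17 over the 6 genes and -0.21 over the 11804. At 2-fold, a threshold passed by 22.8% of genes, 6.27% upward and 16.5% downward, *Crabp2* and the 4 lower genes still passed and *Dhrs3* did not. With no RPKM threshold, 8 of the 9 genes differed by more than 1.5-fold, 2 higher and 6 lower. Of 18155 genes with reads, 42.1% did so, 13.3% higher and 28.8% lower. *Cyp26a1* was above 1 RPKM in shLuc alone, the library where it was higher. With more than 1 RPKM required in both libraries, 5 of the 9 genes were left, 2 higher and 3 lower. By that rule 1751 of 10763 genes were higher and 3123 lower. Median scaling set to 0 the median log2 ratio, without a pseudocount, of the genes above 1 RPKM in both libraries. On that scale a shift of -0.17 was taken out of every gene. This left 22.1% of all genes higher and 25.3% lower. Relative to that shift the same 6 genes passed, at -0.92 for *Rara*, -1.08 for *Rarg*, -1.18 for *Crabp1*, -1.12 for *Cyp26a1*, 1.22 for *Crabp2* and 0.79 for *Dhrs3*. *Aldh1a2*, *Stra6* and *Rarb* stayed below 1 RPKM in both libraries. In bulk RNA, fewer cells that express a gene and less RNA per cell cannot be told apart.

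**Figure D1:**
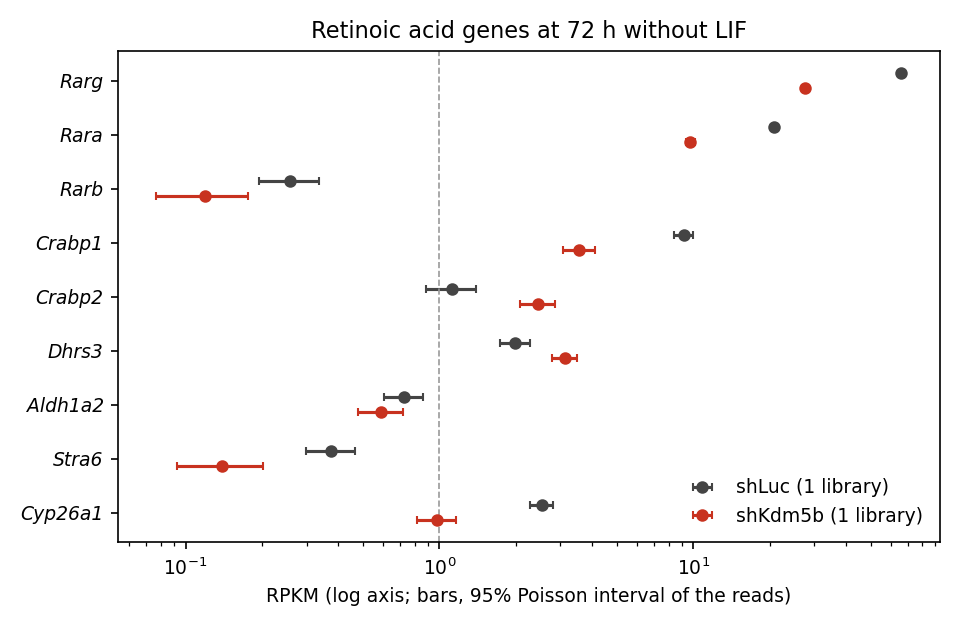
Expression level of the 9 retinoic acid genes in RPKM on a log axis, with 1 point for the shLuc library (grey) and 1 for the shKdm5b library (red), 95% Poisson intervals of the reads as bars and 1 RPKM as a dashed line. *Rarg* stood highest in both libraries, at 65.6 and 27.5 RPKM, and only *Crabp2* and *Dhrs3* lay further right in shKdm5b than in shLuc.

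Uptake and synthesis were represented by weakly expressed genes. *Stra6*, the receptor through which cells take up retinol, had 81 reads (0.375 RPKM) in shLuc and 28 reads (0.139 RPKM) in shKdm5b. The shKdm5b level was 37.2% of the shLuc level, a log2 ratio of -1.43 with an interval from -2.10 to -0.79 without a pseudocount, and -0.99 on RPKM + 0.1, a scale that understates the difference of genes with low levels. Its 4 entries shared nearly all their reads, with 81 to 83 in shLuc and 28 in shKdm5b, so they do not give separate measurements. *Aldh1a2* encodes the retinal dehydrogenase that carries out the last step of synthesis in the early embryo. It had 128 reads (0.723 RPKM) in shLuc and 97 reads (0.589 RPKM) in shKdm5b, a log2 ratio of -0.26 on RPKM + 0.1, and the interval of its ratio without a pseudocount, from -0.69 to 0.097, includes 0. At this depth no difference of *Aldh1a2* was detectable beyond counting error.

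*Dhrs3*, whose product lowers the supply of retinal by reducing it to retinol and which is itself known as induced by retinoic acid, moved upward. It had 210 reads (1.99 RPKM) in shLuc and 307 reads (3.13 RPKM) in shKdm5b, a log2 ratio of 0.63 with an interval from 0.39 to 0.91, whose lower bound lies under the 1.5-fold threshold of 0.58. The other *Dhrs3* entry, which shares most of these reads, had 236 and 360 reads and a log2 ratio of 0.68. The gene therefore sat close to the threshold, at percentile 85.0 of the log2 ratios of all genes above 1 RPKM.

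The cytoplasmic binding proteins went in opposite directions. *Crabp1*, thought to hold retinoic acid in the cytoplasm and pass it on for breakdown, had 531 reads (9.17 RPKM) in shLuc and 191 reads (3.55 RPKM) in shKdm5b. It fell 2.59-fold, with a log2 ratio of -1.35 and an interval from -1.62 to -1.13. *Crabp2*, which carries retinoic acid to the receptors in the nucleus, had 79 reads (1.12 RPKM) in shLuc and 160 reads (2.45 RPKM) in shKdm5b, a log2 ratio of 1.06 with an interval from 0.73 to 1.53. *Crabp1* was thus 8.16-fold above *Crabp2* per length in shLuc and 1.45-fold above it in shKdm5b, and the share of *Crabp2* in their summed RPKM went from 10.9% to 40.8%. The log2 ratio of *Crabp2* to *Crabp1* differed between the libraries by 2.49, with an interval from 2.02 to 2.97. A comparison of both genes inside each library does not depend on how the libraries are scaled to each other, but it can depend on base composition. The transcripts had 57.4% GC for *Crabp1* and 50.6% for *Crabp2*. After the GC correction the difference was 2.02, just under the lower bound of the interval, and after a correction for GC content and length it was 2.15. Their summed level was 10.3 RPKM in shLuc and 5.99 RPKM in shKdm5b.

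*Rarg* and *Rara*, the receptors through which ES cells chiefly sense retinoic acid, were the highest of the 9 genes in both libraries, and both were lower in shKdm5b. They no longer passed 1.5-fold after the GC correction, at log2 ratios of -0.31 for *Rara* and -0.48 for *Rarg*, or after the GC and length correction, at -0.21 and -0.45. *Rarg* had 13172 reads (65.6 RPKM) in shLuc and 5131 reads (27.5 RPKM) in shKdm5b, which is 41.9% of the shLuc level, with a log2 ratio of -1.25 and an interval from -1.30 to -1.21. Among the genes above 1 RPKM in at least 1 library, this took it from percentile 93.0 of the levels in shLuc to percentile 80.6 in shKdm5b. *Rara* had 5104 reads (20.9 RPKM) in shLuc and 2214 reads (9.74 RPKM) in shKdm5b, which is 46.6% of the shLuc level, with a log2 ratio of -1.09 and an interval from -1.17 to -1.03. Its percentile went from 74.0 to 57.1, and its 4 entries, which overlap, gave the same log2 ratio of -1.09.

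*Rarb*, the receptor gene that retinoic acid itself induces through the promoter element shown above, had 56 reads (0.258 RPKM) in shLuc and 24 reads (0.119 RPKM) in shKdm5b. Its ratio without a pseudocount was -1.12 on the log2 scale with an interval from -1.87 to -0.40, and the log2 ratio on RPKM + 0.1 was -0.71. Exons of *Top2b*, a topoisomerase gene transcribed from the opposite strand, overlap 57.7% of the GENCODE transcript matched to the *Rarb* entry. The library protocol names no step that marks the strand, so reads of the pair cannot be told apart in that stretch. The RefSeq ranges of *Top2b* and *Rarb* do not overlap, however, and the reads were counted on RefSeq entries, whose release is not given. *Top2b* had 7257 reads in shLuc and 10222 reads in shKdm5b, that is, more where *Rarb* had fewer, and its part in the *Rarb* reads was not tested.

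Before any correction for GC content, the make-up of the receptor family differed little between the libraries. The summed RPKM of the 3 receptor genes was 86.7 in shLuc and 37.3 in shKdm5b, of which *Rarg* made up 75.6% and 73.6%, *Rara* 24.1% and 26.1%, and *Rarb* 0.298% and 0.319%. The log2 ratio of *Rara* to *Rarg* differed between the libraries by 0.16, with an interval from 0.069 to 0.24. The corresponding difference was 0.14 for *Rarb* to *Rarg*, with an interval from -0.62 to 0.85, and -0.02 for *Rarb* to *Rara*, with an interval from -0.78 to 0.70. These intervals include 0 but are wide, because of the few *Rarb* reads. The *Rarb* transcript has 47.8% GC, against 58.6% for *Rara* and 58.2% for *Rarg*. After the GC correction the difference was -0.59 for *Rarb* to *Rarg* and -0.77 for *Rarb* to *Rara*, so the share of *Rarb* depends on that correction.

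*Cyp26a1*, the enzyme that clears retinoic acid and among the most responsive of its textbook targets, had 352 reads (2.53 RPKM) in shLuc and 127 reads (0.981 RPKM) in shKdm5b. It fell to 38.8% of the shLuc level, with a log2 ratio of -1.28 and an interval from -1.67 to -1.07. *Cyp26a1* and *Dhrs3*, both known as genes that retinoic acid induces, therefore differed in opposite directions between the same libraries. The relatives of *Cyp26a1* that degrade retinoic acid elsewhere in the embryo were hardly detected, with 25 and 2 reads for *Cyp26b1* and 6 and 5 reads for *Cyp26c1* in shLuc and shKdm5b.

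Per length, the level of *Rarg* was 254-fold that of *Rarb* in shLuc and 231-fold in shKdm5b, and the other 7 genes lay between them. In shLuc the order was *Rarg*, *Rara*, *Crabp1*, *Cyp26a1*, *Dhrs3*, *Crabp2*, *Aldh1a2*, *Stra6* and *Rarb*, and the intervals of neighbours overlapped for *Cyp26a1* with *Dhrs3* and for *Stra6* with *Rarb*. In shKdm5b *Cyp26a1* (0.818 to 1.17 RPKM) came after *Crabp2* (2.08 to 2.85 RPKM), with intervals apart. The interval of *Dhrs3* there overlapped with that of *Crabp1* above it and that of *Crabp2* under it, and *Stra6* and *Rarb* again overlapped at the low end. The summed level of the 9 genes was 102.6 RPKM in shLuc and 48.1 RPKM in shKdm5b, with *Rarg* alone making up 63.9% and 57.0% of it.

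The base composition of the transcripts moved with the differences. Across the 11535 genes above 1 RPKM with a GC content, which are not independent replicates, the Spearman correlation of GC content and log2 ratio was -0.53. *Rara* (58.6% GC), *Rarg* (58.2%), *Crabp1* (57.4%) and *Stra6* (56.8%) lie well above the median GC content of 50.5%, *Dhrs3* (54.8%) and *Cyp26a1* (53.8%) less so, and *Crabp2* (50.6%) and *Aldh1a2* (50.6%) lie at the median. Genes within 1 percentage point of GC content of *Rara* had a median log2 ratio of -0.80, and the log2 ratio of *Rara* differed from it by -0.29. *Rarg* differed from its own GC neighbours by -0.46, *Crabp1* by -0.59, *Cyp26a1* by -0.76, *Dhrs3* by 1.19 and *Crabp2* by 1.34. When a smooth curve of the log2 ratio against GC content was taken out, which put *Rara* and *Rarg* within 1.5-fold, *Cyp26a1* (-0.81) and *Crabp1* (-0.63) stayed lower and *Crabp2* (1.29) and *Dhrs3* (1.17) stayed higher. After that correction 19.0% of all genes were higher and 17.8% lower. Beyond this correction, the part of GC content in the *Rara* and *Rarg* differences was not tested.

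**Figure D2:**
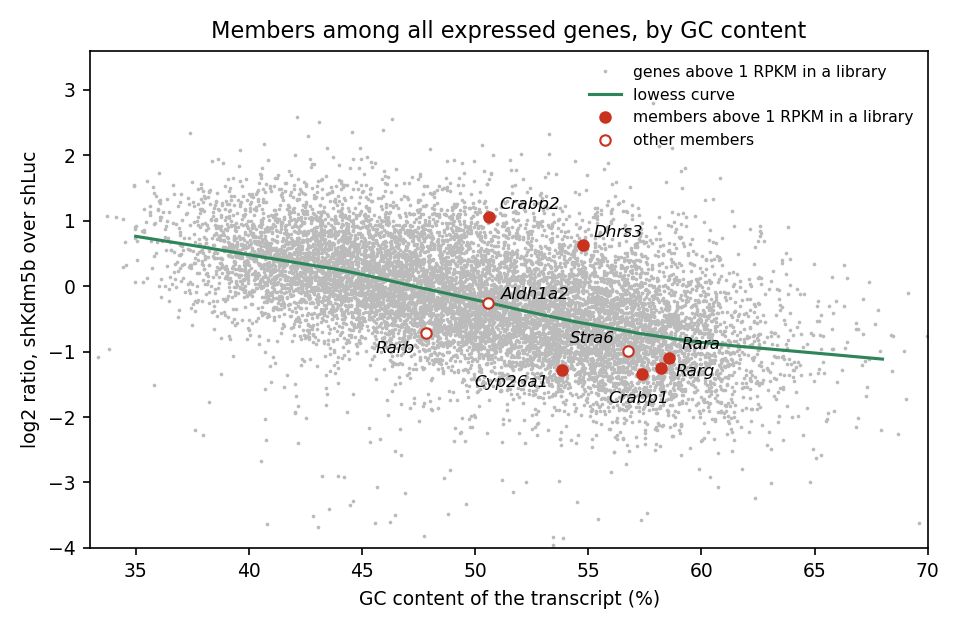
The log2 ratio of shKdm5b to shLuc on RPKM + 0.1 (vertical axis) against the GC content of the transcript in percent (horizontal axis) for genes above 1 RPKM in at least 1 library (grey points), with a lowess curve in green, 6 of the retinoic acid genes as filled red circles and the 3 with lower levels as open circles. *Crabp2* and *Dhrs3* lay above the curve, *Aldh1a2* lay on it, and *Rara* and *Rarg* lay nearer to it than *Cyp26a1* and *Crabp1*.

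**Figure D3:**
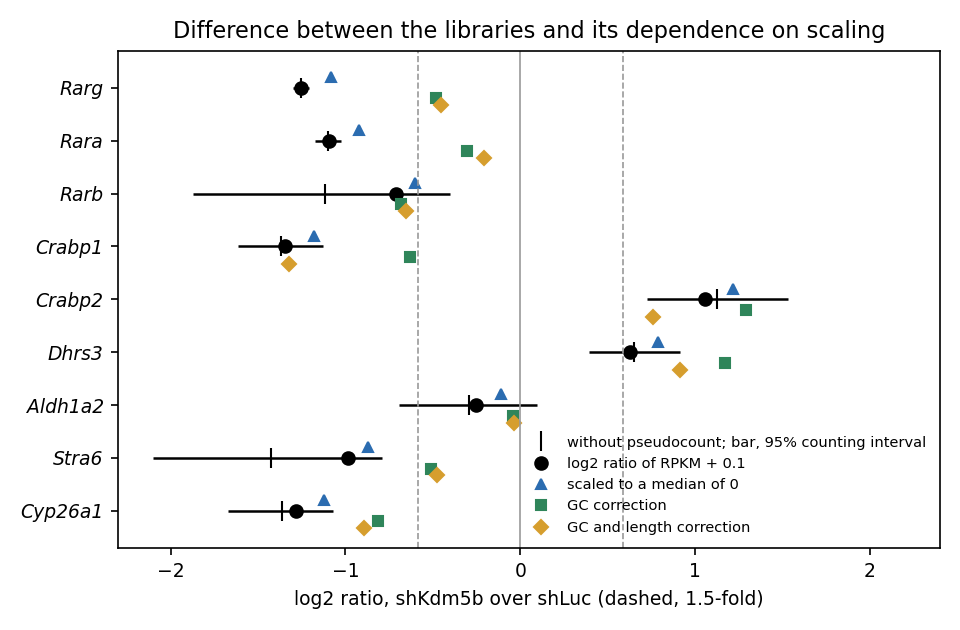
The log2 ratio of shKdm5b to shLuc (horizontal axis) for each of the 9 genes, on RPKM + 0.1 (black circles) and without a pseudocount (vertical ticks) with its 95% counting interval (bars), and on RPKM + 0.1 after scaling to a median of 0 (blue), after a GC correction (green) and after a GC and length correction (yellow). Dashed lines mark 1.5-fold, and the values of *Rara* and *Rarg* after either correction (-0.21 to -0.48) lay between them.

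The rest of the pathway was read from a list of 72 further genes, of which 71 were in the tables and 37 had more than 1 RPKM in at least 1 library. Of these 37, 7 were higher (18.9%) and 9 lower (24.3%) by more than 1.5-fold, shares that stand beside 16.3% and 32.0% of all genes, and their median log2 ratio was -0.06 against -0.21. With median scaling, 10 were higher and 8 lower. With more than 1 RPKM required in both libraries, 30 genes were left, 5 higher and 7 lower. The retinoid X receptors, without which the RARs do not bind DNA well, were the group that fell as a whole, with 3 of 3 lower. *Rxrb* had 4285 reads (21.3 RPKM) in shLuc and 677 reads (3.61 RPKM) in shKdm5b, a log2 ratio of -2.52, *Rxrg* went from 8.56 to 3.87 RPKM (log2 ratio -1.12), and *Rxra* went from 2.67 to 1.47 RPKM (log2 ratio -0.82). Their summed level was 32.5 RPKM in shLuc and 8.96 RPKM in shKdm5b. After the GC correction *Rxrb* (-1.63) and *Rxrg* (-0.71) were still lower and *Rxra* (-0.14) was not. Of 9 coregulators of the receptors, *Ncoa1*, a coactivator, was lower (6.52 and 3.48 RPKM, log2 ratio -0.89), and the other 8 were within 1.5-fold.

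Genes that carry, store or convert retinoids had no common direction. *Rbp7*, which encodes a cytoplasmic retinol binding protein, rose from 1.53 to 3.96 RPKM (log2 ratio 1.32). *Ttr*, the plasma carrier of the retinol binding protein, fell from 2.55 to 0.135 RPKM (log2 ratio -3.49). Among 16 genes that oxidise or reduce retinoids, 7 were above 1 RPKM, and *Rdh14* was higher (log2 ratio 0.68) while *Dhrs4* (log2 ratio -1.17), *Rdh11* (log2 ratio -0.79) and *Rdh13* (log2 ratio -0.69) were lower. *Rdh10*, the main retinol dehydrogenase of the embryo, had 1.86 RPKM in shLuc and 1.91 RPKM in shKdm5b. The retinal dehydrogenases other than *Aldh1a2* were at the edge of detection, with 1 read and 0 reads for *Aldh1a1* and 11 and 8 reads for *Aldh1a3*, so that *Aldh1a2* had the most reads of the 3. *Fabp5*, which can carry retinoic acid to another nuclear receptor, had 20.9 RPKM in shLuc and 15.7 RPKM in shKdm5b (log2 ratio -0.41), a level above *Crabp1* and *Crabp2* in both libraries.

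Of 31 genes known as targets of retinoic acid or as induced by it, 13 were above 1 RPKM in at least 1 library. Of these, 4 were higher (30.8%, beside 16.3% of all genes) and 1 lower (7.69%, beside 32.0%). Their median log2 ratio was 0.35 against -0.21 for all genes. Among the called genes, *Stra8* and *Wnt8a* were above 1 RPKM in shKdm5b alone and *Rarres2* in shLuc alone. They passed the filter only through the library where they were higher, so these shares do not test a direction. *Stra8*, which germ cells switch on in response to retinoic acid at the entry into meiosis, had 70 reads (0.615 RPKM) in shLuc and 329 reads (3.11 RPKM) in shKdm5b, a log2 ratio of 2.17. *Tfap2c*, a transcription factor of trophoblast and germ cells, rose from 3.24 to 7.23 RPKM (log2 ratio 1.14), *Cdkn1a*, a cell cycle inhibitor, from 16.4 to 36.0 RPKM (log2 ratio 1.13), and the ligand gene *Wnt8a* from 0.539 to 1.36 RPKM (log2 ratio 1.19). *Rarres2*, which encodes chemerin, was the lower gene, with 102 and 38 reads (log2 ratio -1.21), and exons of *Lrrc61* on the opposite strand overlap 40.9% of its transcript. *Hoxb1*, a gene of hindbrain patterning, stayed below 1 RPKM, with 26 reads in shLuc and 69 reads in shKdm5b.

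**Figure D4:**
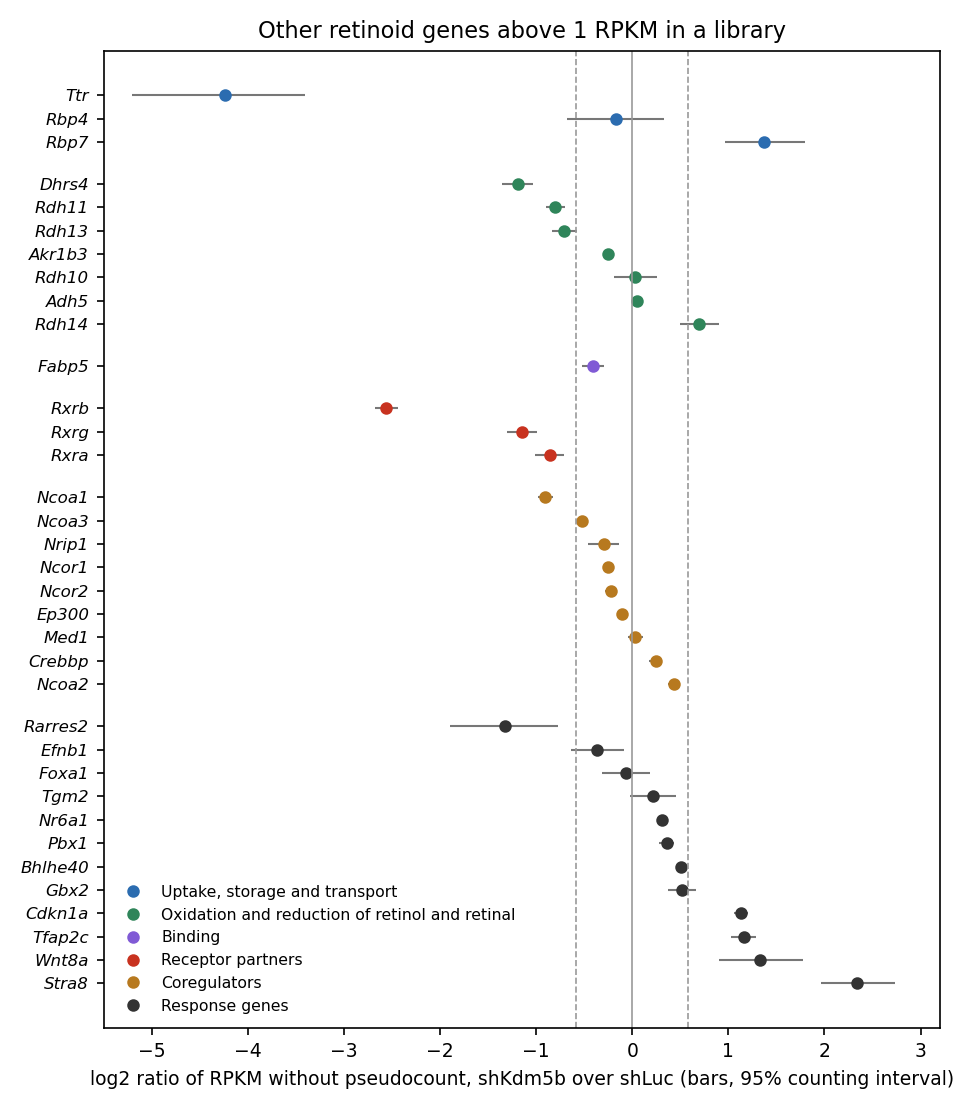
The log2 ratio of RPKM without a pseudocount, shKdm5b over shLuc (horizontal axis), for 35 further retinoid genes above 1 RPKM in at least 1 library, coloured by role, with 95% counting intervals as bars and dashed lines at 1.5-fold. The 3 receptor partners *Rxra*, *Rxrb* and *Rxrg* lay left of the lower line, and the response genes ran from *Rarres2* on the left to *Stra8* on the right.

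Markers of cell types that differentiating ES cells can form differed between the libraries as well. Of 8 markers of primitive and visceral endoderm, an early cell type rich in retinol carriers, 5 were above 1 RPKM in at least 1 library. All 5 were lower in shKdm5b, *Ttr* among them, where 32.0% of all genes were lower and 16.3% higher. Of the 5, *Dab2* was above 1 RPKM in both libraries (18.5 in shLuc and 3.15 in shKdm5b). *Gata6*, *Gata4*, *Ttr* and *Amn* were above it in shLuc alone, so they passed the filter only through the library where they were higher. The count of 5 therefore does not test a direction. The summed level of the 8 was 28.5 RPKM in shLuc and 4.51 RPKM in shKdm5b, most of it from *Dab2*. *Afp* had 65 reads in shLuc and 0 reads in shKdm5b. Neural progenitor markers summed to 5.61 and 8.004 RPKM, with 1 of 3 above 1 RPKM higher and *Neurog2* at 1 read in shLuc and 0 in shKdm5b. Mesoderm markers summed to 3.23 and 5.09 RPKM, most of it from *Eomes*, the 1 above 1 RPKM, which was higher (2.45 and 4.05 RPKM). Below 1 RPKM, *T* (6 and 47 reads) and *Tbx6* (44 and 53) had more reads in shKdm5b. *Mixl1* (50 and 35), *Kdr* (39 and 25) and *Mesp1* (4 and 2) had fewer. Markers of fibroblasts, the feeder cells, summed to 4.88 and 5.58 RPKM, with the 1 gene above 1 RPKM within 1.5-fold and *Postn* at 3 reads in shLuc and 0 in shKdm5b. The reads of *Neurog2* and *Postn* were too few to show a difference. Among the 8 pluripotency markers 1 (*Dppa5a*) was higher and 2 (*Pou5f1* and *Esrrb*) were lower. *Esrrb* was within 1.5-fold after the GC correction (log2 ratio -0.31), and *Dppa5a* after the GC and length correction (-0.03). *Pou5f1* stayed lower after both (-1.03 and -1.30), and *Klf4* became higher (0.75 and 0.83). Of all genes, 19.0% were higher and 17.8% lower after the first correction, and 15.5% and 16.5% after the second. The part of these cell types in the levels of *Stra6*, *Crabp1*, *Cyp26a1* and the other retinoic acid genes was not tested.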

How the data were processed

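Polyadenylated RNA of 1 shLuc and 1 shKdm5b library was analysed. For each RefSeq entry the authors deposited a read count, the transcript length and the RPKM, that is, the count normalized to length and library total. The deposited alignments, in mm8 coordinates, were used to count the aligned reads, which equalled the totals behind the RPKM to within 2 reads (78172698 in shLuc, 72702698 in shKdm5b). Per the labels, the processing notes of the submitters name CASAVA 1.0, Bowtie 0.12.7 and mm8, without saying for which step. The RefSeq release and the counting program are not given in the sources used here. A further column of small whole numbers, whose meaning is not stated, was not used.

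Where a symbol had several entries, its values are those of the entry with the highest mean RPKM. The log2 ratio was taken on RPKM + 0.1, and a gene was called higher or lower at more than 1.5-fold with more than 1 RPKM in at least 1 library. These are the fold and RPKM thresholds of the study. Its FDR threshold was not applied, since 1 library per condition gives no dispersion. Intervals of ratios are Clopper-Pearson, of levels Poisson, and of differences between paralogs conditional exact, all at 95% and from reads without a pseudocount. All 9 genes are named, with the further pathway genes past the thresholds and 13 chosen for their role, of which 2 are not reported here. The genes, lists and thresholds were chosen with earlier results of these data known.

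GC content came from GENCODE M21 transcripts (GRCm38) through the RefSeq accession, for 97.7% of the genes tested. Corrections used a lowess curve (fraction 0.3). The alternatives were pseudocounts of 1 and 0.01, scaling to a median log2 ratio of 0 or to the same 75th percentile, summed entries, the corrections for GC content and for GC content and length, and other RPKM and fold thresholds. No annotation of mm8 was used, so positions are given for the promoter stretches alone, in GRCm38, and reads along the genes and their protein sequences were not analysed here. The steps were tested on simulated data. Python 3.11.15, pandas 2.3.3, NumPy 2.4.6, SciPy 1.17.1, statsmodels 0.14.6 and matplotlib 3.10.9 were used.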

Additional observations from a re-analysis of the deposited data

How the results depend on the processing

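No gene of the 9 changed sign under the 7 alternatives of its log2 ratio, and a pseudocount of 0.01, summed entries and more than 1 RPKM in both libraries moved none of the values past their counting interval or the counts past 1.5-fold, although with summed entries *Stra6* passed the RPKM threshold, since its 4 overlapping entries were added. After the GC correction the log2 ratios were -0.31 for *Rara*, -0.48 for *Rarg*, -0.51 for *Stra6*, -0.63 for *Crabp1*, -0.81 for *Cyp26a1* and 1.17 for *Dhrs3*, the difference of *Crabp2* over *Crabp1* was 2.02, 2 of the 9 genes and 2040 of all genes were lower, and 11 further pathway genes were higher. After the GC and length correction they were -0.21 for *Rara*, -0.45 for *Rarg*, -0.47 for *Stra6*, -0.90 for *Cyp26a1* and 0.91 for *Dhrs3*, the differences were 0.24 for *Rara* over *Rarg* and -0.82 for *Rarb* over *Rara*, and 2 of the 9, 1891 of all genes (lower) and 12 pathway genes (higher) were called. Both corrections centre the log2 ratio by construction. Median scaling gave -0.92 for *Rara* and -1.08 for *Rarg*, and scaling to the 75th percentile -0.90 and -1.06. These scalings take -0.17 and -0.19 out of every log2 ratio before the pseudocount is added.

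A pseudocount of 1, which shrinks low levels, gave -1.03 for *Rara*, -0.83 for *Cyp26a1*, 0.70 for *Crabp2*, -0.27 for *Stra6* and -0.17 for *Rarb*, differences of 1.86 for *Crabp2* over *Crabp1*, 0.86 for *Rarb* over *Rara* and 1.06 for *Rarb* over *Rarg*, and 1 higher gene of the 9, *Dhrs3* no longer passing. Above 11 RPKM, 1227 genes were higher and 1451 lower, with 0 and 2 of the 9 and 1 and 2 of the pathway genes. Above 2-fold, 740 genes were higher and 1948 lower, with 1 of the 9 higher and 5 pathway genes lower, and with no RPKM threshold 12 pathway genes were higher and 14 lower. The values of *Rarb*, *Stra6* and *Aldh1a2*, with at most 128 reads in a library, are limited by depth. No paired analysis was possible because there was 1 library for each condition, so that no replicate could be left out either.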
